A study of Homo sapiens with 6 samples.

Results

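The BCL2 family decides whether the outer mitochondrial membrane stays intact, and 10 of its genes are described here in wild-type HEK 293T cells and in a line labelled as a double knockout of the uridylyltransferases TUT4 and TUT7. They are the pro-survival genes BCL2, BCL2L1, BCL2L2 and MCL1, the effector genes BAK1 and BOK, and the BH3-only genes BID, BIK, BMF and BCL2L11. The rule takes them by gene symbol from a table of 30270 genes and has no threshold on a measured value, though the set was proposed with earlier results of these data known, and all 10 were in the table and passed the filter on low counts. HEK 293T is an established line of embryonic kidney origin that carries the SV40 large T antigen. Ribosomal RNA was depleted from total RNA of untreated cultures, and the rest was sequenced in 3 WT libraries and in 3 libraries labelled as a knockout of both TENT3A and TENT3B, which are other names for TUT4 and TUT7 (ΔTUT4/7). The study asked which transcripts change when both enzymes are deleted. The knockout line had been made earlier and was given to the study, each group is 1 line grown in the same medium, and the 3 libraries of a group are labelled as biological replicates, so the p-values measure the spread between these libraries and not between independently made clones.

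BCL2 family proteins share short BCL2 homology (BH) motifs. The effectors open pores in the outer mitochondrial membrane and so let cytochrome c into the cytosol, where it starts caspase activation. The pro-survival proteins hold the effectors and the BH3-only proteins in a groove on their surface, and the BH3-only proteins are the stress sensors that fill this groove or activate the effectors. The balance is set by the amounts of these proteins as well as by their cleavage, phosphorylation and degradation, and RNA counts show only the first step of it.

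Library totals ran from 18757228 to 33148937 estimated counts. TUT7 was lower in the libraries labelled ΔTUT4/7, at 26.3 ± 1.04 CPM against 62.6 ± 2.17 CPM in WT (mean ± SD, n = 3; CPM is the count relative to the TMM-scaled library size). Here and below, ± after a log2 fold change is its standard error, and adjusted p-values are from edgeR's quasi-likelihood test over all tested genes. TUT4 went against the label: its RNA was at 906 ± 21.4 CPM there and 211 ± 5.08 CPM in WT, a log2 fold change of 2.10 ± 0.04 (adjusted p = 7.89e-19), so the counts do not check the deletion of TUT4. Of 8 genes that mark HEK 293T cells, 3 were higher and 5 lower in the libraries labelled ΔTUT4/7, and their summed level was 1791 to 1995 CPM in WT and 1431 to 1444 CPM in the others. NEFM, a neurofilament gene that HEK 293T cells usually express, had 1 count over those 3 libraries and 969 ± 123 CPM in WT. The 3 markers that were higher went the other way. INA rose from 2.34 ± 0.0919 to 31.4 ± 1.24 CPM, VIM from 496 ± 22.9 to 1250 ± 5.77 CPM and KRT18 from 30.5 ± 1.78 to 44.3 ± 1.42 CPM. Of 4 fibroblast markers only COL1A1 was in the table (20.4 ± 1.57 CPM in WT and 7.45 ± 0.801 CPM in the others), and of 3 blood cell markers only LYZ, with at most 6 counts in a library. The part of these differences in the results below was not tested.

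In the libraries labelled ΔTUT4/7, 5 of the 10 genes were called higher, namely BCL2, BCL2L1, MCL1, BAK1 and BCL2L11, at an adjusted p under 0.05. Over all 23952 genes tested, 28.6% were called higher. The 2 called lower were BCL2L2 and BMF, where 29% of all tested genes were called lower. The 3 not called were BOK, BID and BIK. A change of at least 2-fold was seen for BAK1, which rose (5.9% of all tested genes rose by that much), and for BMF, which fell (12.4% of all tested genes). For 8 of the 10 genes, all but BOK and BIK, the 3 WT values and those of the libraries labelled ΔTUT4/7 did not overlap. The same held for 62.7% of all tested genes. None of these shares of all tested genes was matched for count. BOK and BIK had the lowest mean counts of the 10 genes (22.2 and 14.5). The median log2 fold change of the 10 genes was 0.34, beside -0.02 over all tested genes, and their median absolute log2 fold change was 0.44, beside 0.47. The sizes of change among the 10 genes were therefore close to those of the table as a whole. As the libraries are of bulk RNA, fewer cells that express a gene and less of its RNA per cell cannot be told apart.

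**Figure D1:**
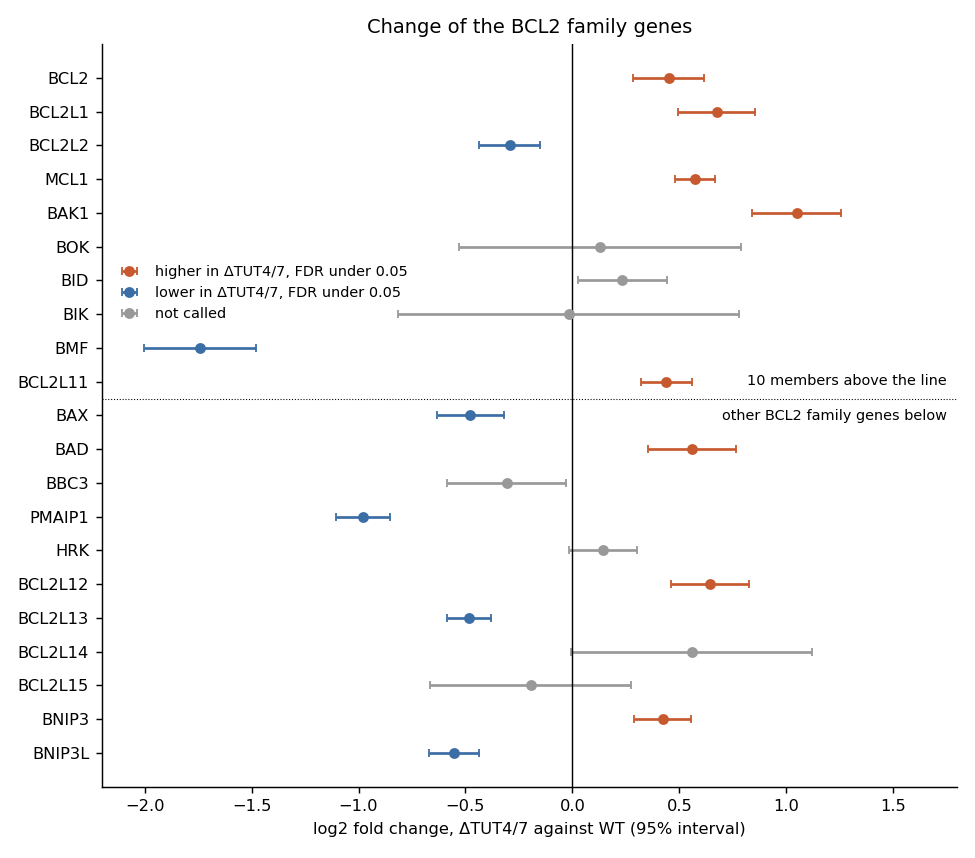
Log2 fold change of each gene in the libraries labelled ΔTUT4/7 against WT (x axis), with 95% intervals from edgeR's quasi-likelihood fit; the 10 genes stand above the dotted line and the 11 tested other BCL2 family genes below it, coloured by call. BAK1 (1.05) and BMF (-1.74) stand farthest from 0 among the 10 genes, and the intervals of BOK and BIK span 0 widely.

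Of the 4 pro-survival genes, 3 rose and 1 fell. BCL2L1 encodes BCL-XL, a survival protein of many cell types, and is on chromosome 20 from 31664452 to 31723989 (hg38, minus strand). It stood at 13.5, 13.3 and 14.6 CPM in WT replicates 1, 2 and 3 and at 21.9, 20.9 and 23.6 CPM in the libraries labelled ΔTUT4/7. All of the latter lay above all WT values, and the change was 1.6-fold (log2 fold change 0.67 ± 0.09, adjusted p = 7.56e-07). The gene also makes a short form with the opposite activity, BCL-XS, and gene counts do not separate the forms. Its estimated count was further than 0.01 from a whole number in all 6 libraries, and 1735 of its 4197 exon bases are shared with the lncRNA ABALON on the other strand. With both genes summed the log2 fold change was 0.70 ± 0.08, where ABALON itself rose (log2 fold change 1.06).

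The study followed the let-7 microRNAs, which TUT4 and TUT7 modify, and their shared seed is shown with the single match it has among the 3′ UTRs of the 10 genes. The mature sequences (RefSeq) have the seed, bases 2 to 8, in capitals, and the site has the bases complementary to that seed in capitals.
hsa-let-7a-5p: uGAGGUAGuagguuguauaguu
hsa-let-7i-5p: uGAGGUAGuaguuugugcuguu
BCL2L1 site at chr20:31664987-31665015, minus strand, hg38: cagggtcttccCTACCTCaggcaggaagg
The match lies in the 3′ UTR of the canonical transcript of GENCODE release 44, is followed by an A, and belongs to a gene whose count rose. The letters CTACCTC occur in 11% of 14295 3′ UTRs of tested genes and in 9.72% of those of a length similar to the 1491 bases of BCL2L1. The 3′ UTRs of the other 9 genes do not hold these letters. A match is a description of sequence, and microRNA levels were not analysed here.

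MCL1 encodes a short-lived survival protein that needs steady synthesis, and it is on chromosome 1 from 150560895 to 150579738 (minus strand). Its level was 242, 238 and 220 CPM in the WT libraries and 346, 347 and 349 CPM in those labelled ΔTUT4/7. The second group lay above the first without overlap, and its 3 values differed by less than those of WT. MCL1 rose 1.49-fold (log2 fold change 0.57 ± 0.04, adjusted p = 4.02e-10), and with 17695 and 24652 counts per group it is the most deeply sequenced of the 10 genes. Genes that overlap it, ADAMTSL4, ADAMTSL4-AS1, RN7SL473P and RN7SL600P, held at most 89.6 counts in any library, while MCL1 held at least 4756.

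BCL2, the founding member of the family, spans chromosome 18 from 63123346 to 63320128 (minus strand). It was at 20.2, 18.3 and 17.5 CPM in WT and at 25.1, 25.1 and 26.1 CPM in the libraries labelled ΔTUT4/7, again with no overlap. The change was 1.36-fold (log2 fold change 0.45 ± 0.08, adjusted p = 4.60e-05). An unnamed lncRNA, AC022726.2, lies within it on the other strand and had at most 9 counts.

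BCL2L2, which encodes the survival protein BCL-w, was the pro-survival gene that fell. It is on chromosome 14 from 23298790 to 23311751 (plus strand) and was at 35.6, 36.2 and 33.9 CPM in WT and at 29.5, 26.5 and 30.1 CPM in the libraries labelled ΔTUT4/7. The highest of the latter was below the lowest WT value, and the change was 1.23-fold (log2 fold change -0.29 ± 0.07, adjusted p = 0.000973). The gene shares 815 of its 4840 exon bases with BCL2L2-PABPN1, a readthrough gene that joins it to PABPN1 downstream, and reads were divided between them by the authors' model. The readthrough gene was at 28.3 ± 3.62 CPM in WT and 27.6 ± 2.21 CPM in the libraries labelled ΔTUT4/7 (adjusted p = 0.725). With the readthrough gene added, BCL2L2 was still lower (log2 fold change -0.18 ± 0.06, adjusted p = 0.0160), and with PABPN1 added too, which shares no exon base with BCL2L2, the log2 fold change was 0.03 ± 0.04 (adjusted p = 0.526). PABPN1 alone was at 141 ± 3.82 CPM in WT, so the last sum mostly measures PABPN1. On the other strand BCL2L2 shares 149 exon bases with HOMEZ and 315 with PPP1R3E, both of which fell (log2 fold changes -0.68 and -0.53).

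**Figure D2:**
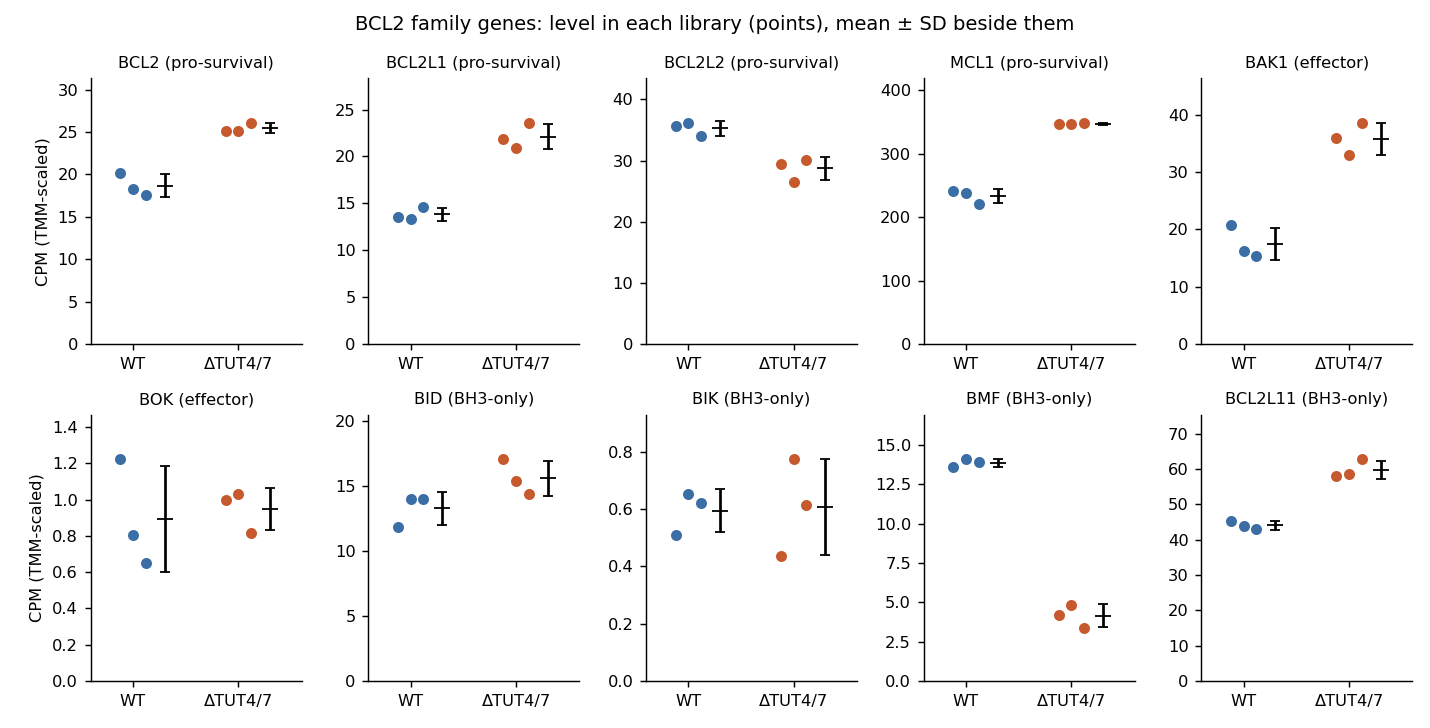
Level of each of the 10 genes in CPM (y axis, from 0, scaled per panel) in the 3 WT libraries and the 3 libraries labelled ΔTUT4/7, as points, with the mean ± SD as a bar beside them. The points of the groups do not overlap in 8 panels; they do for BOK and BIK, which stay near or under 1 CPM in every library.

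BAK1 encodes an effector that sits in the outer mitochondrial membrane and forms pores once activated. The gene is on chromosome 6 from 33572547 to 33580293 (minus strand), and its promoter is shown because BAK1 had the largest increase of the 10 genes. The 300 bases run from 250 before to 50 after a transcript start (RefSeq, GRCh38.p14). Capitals mark a match to GAANNTTC, the core of a heat shock element, and 2 matches to CCAAT or its reverse complement.
BAK1 promoter at chr6:33580227-33580526, minus strand: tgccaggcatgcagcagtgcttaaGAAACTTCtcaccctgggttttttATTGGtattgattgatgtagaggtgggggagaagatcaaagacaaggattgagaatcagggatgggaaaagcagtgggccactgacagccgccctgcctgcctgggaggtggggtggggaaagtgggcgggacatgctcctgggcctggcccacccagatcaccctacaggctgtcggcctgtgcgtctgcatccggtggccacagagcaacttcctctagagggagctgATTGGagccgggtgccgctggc
GAANNTTC is in 6.77% and CCAAT in 34.6% of 35116 promoters of this length of any gene, searched on both strands. The E-box CACGTG, the cAMP response element TGACGTCA and the ATF4 element TGATGNAA were searched in the same way, and none of them is in this window.

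BAK1 was at 20.7, 16.3 and 15.5 CPM in WT and at 35.9, 33.0 and 38.6 CPM in the libraries labelled ΔTUT4/7. All of the latter lay above every WT value, and WT replicate 1 was the highest of its group. BAK1 rose 2.05-fold (log2 fold change 1.05 ± 0.10, 95% interval 0.84 to 1.26, adjusted p = 9.72e-08). Reads of the processed pseudogene BAK1P1 on chromosome 20 can come from BAK1, and its value also rose, from 1.32 ± 0.269 to 3.86 ± 1.27 CPM. With both summed the log2 fold change was 1.09 ± 0.10, and since both rose the sum had to rise.

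BOK, an effector-like protein that is kept low by degradation at the endoplasmic reticulum, was barely expressed. Its gene on chromosome 2 (241551424 to 241574131, plus strand) held 24, 21 and 20 counts in WT and 32, 20 and 16 in the libraries labelled ΔTUT4/7. The groups overlapped, and the 95% interval of the log2 fold change (0.13) ran from -0.53 to 0.79 (adjusted p = 0.752). At this depth the change of BOK is bounded only within that range.

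Of the 4 BH3-only genes, 1 rose, 1 fell and 2 were not called. BMF encodes a protein that is held at the actin-based myosin V motor through dynein light chain 2 and is freed when cells detach. It was at 13.6, 14.1 and 13.9 CPM in WT and at 4.21, 4.85 and 3.37 CPM in the libraries labelled ΔTUT4/7. All WT values were far above all others, and BMF was 3.34-fold lower (log2 fold change -1.74 ± 0.13, 95% interval -2.0 to -1.48, adjusted p = 1.23e-10), the largest change among the 10 genes. The gene is on chromosome 15 from 40087890 to 40108892 (minus strand), no annotated gene overlaps it, and the estimated count was within 0.01 of a whole number in 5 of the 6 libraries. Summed over each group the estimate rests on 1059 and 295 counts.

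The promoter of BMF is shown as the counterpart of that of BAK1, with matches to GAANNTTC and CCAAT in capitals as before. It is the window that covers the start of the gene; a start further downstream, whose window holds none of the 5 motifs, is not shown.
BMF promoter at chr15:40108830-40109129, minus strand: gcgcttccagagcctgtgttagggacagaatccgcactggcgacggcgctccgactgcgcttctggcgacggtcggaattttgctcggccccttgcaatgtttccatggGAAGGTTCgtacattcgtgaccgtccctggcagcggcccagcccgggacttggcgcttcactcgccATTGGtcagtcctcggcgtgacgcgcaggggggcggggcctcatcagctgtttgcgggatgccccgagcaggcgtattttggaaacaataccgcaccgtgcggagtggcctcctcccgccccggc
The first base of the GAANNTTC match lies 141 bases before the start in BMF and 226 bases before it in BAK1. The genes of the 2 promoters moved in opposite directions.

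Among the 3′ UTRs of the 10 genes, those of BMF and BIK hold matches to the seed of miR-34a, which belongs to a microRNA family that the study followed, and a site of each gene is shown. Capitals mark the seed in the mature sequence and its complement in the sites.
hsa-miR-34a-5p: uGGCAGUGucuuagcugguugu
BMF site at chr15:40091015-40091043, minus strand, hg38: aggtacagagcCACTGCCaccactggcgg
BIK site at chr22:43129337-43129365, plus strand, hg38: acccccatgacCACTGCCctggaggtggc
The BMF site shown is followed by an A, and the BIK site is not. The 3′ UTR of BMF holds 2 matches, and the one not shown, at base 3571, is not followed by an A. The letters CACTGCC are in 17.4% of the 14295 3′ UTRs, in 26.9% of those of a length similar to the 3897 bases of BMF and in 6.59% of those similar to the 407 bases of BIK. The 2 genes with a match differ in their counts, since BMF fell and BIK was not called.

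BCL2L11 encodes BIM, a broad-acting BH3-only protein that binds all pro-survival members and is held by dynein light chain 1. It was at 45.4, 43.96 and 42.9 CPM in WT and at 57.9, 58.7 and 62.7 CPM in the libraries labelled ΔTUT4/7. The groups were well apart, and BCL2L11 rose 1.36-fold (log2 fold change 0.44 ± 0.06, adjusted p = 1.00e-06). The gene is on chromosome 2 from 111119378 to 111168445 (plus strand) and lies inside MIR4435-2HG, a lncRNA on the other strand, which went from 11.4 ± 1.29 to 62.3 ± 3.79 CPM (log2 fold change 2.43 ± 0.08). Of the 6742 exon bases of BCL2L11, 727 are shared with it. Whether the counting used strand is not given in the sources used here, so reads of BCL2L11 and of this lncRNA cannot be told apart in the shared bases. With the lncRNA added to BCL2L11 the sum went from 55.5 ± 0.759 to 122 ± 6.29 CPM (log2 fold change 1.14 ± 0.05, adjusted p = 6.61e-14). Since both rose, the sum had to rise, and it does not show how much of the rise of BCL2L11 is its own. ACOXL, which overlaps BCL2L11 on the same strand without sharing an exon base, fell (log2 fold change -1.86).

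BID is cut by CASP8 and carries the death receptor signal to mitochondria. Its gene on chromosome 22 (17734138 to 17774770, minus strand) was at 11.8, 14.0 and 14.0 CPM in WT and at 17.0, 15.4 and 14.4 CPM in the libraries labelled ΔTUT4/7. The highest WT value was just below the lowest of the other group, but the difference did not pass the test (log2 fold change 0.23 ± 0.10, unadjusted p = 0.0300, adjusted p = 0.0519). It did pass when WT replicate 2 was left out (adjusted p = 0.0468), when ΔTUT4/7 replicate 3 was left out (adjusted p = 0.0346) and with an offset for GC content and length (adjusted p = 0.0497). BIK, a BH3-only protein of the endoplasmic reticulum, had 10, 17 and 19 counts in WT and 14, 15 and 12 in the libraries labelled ΔTUT4/7. Its groups overlapped and its log2 fold change of -0.02 had a 95% interval from -0.81 to 0.78 (adjusted p = 0.972), so that this depth bounds the change only within that range. BIK lies on chromosome 22 from 43110750 to 43129712 (plus strand).

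Levels of different genes were compared as CPM per kilobase of annotated exon. MCL1 stood first in both groups, at 37.5 ± 1.85 CPM per kilobase in WT and 55.8 ± 0.231 in the libraries labelled ΔTUT4/7. In WT it was followed by BAK1 (7.90 ± 1.28), BCL2L2 (7.28 ± 0.241), BCL2L11 (6.54 ± 0.184), BCL2L1 (3.30 ± 0.162), BID (3.00 ± 0.285), BMF (2.54 ± 0.0448), BCL2 (1.48 ± 0.109), BIK (0.625 ± 0.0795) and BOK (0.334 ± 0.110). BAK1 and BCL2L2 were the only neighbours in this order whose 3 WT values overlapped. In the libraries labelled ΔTUT4/7 the order after MCL1 was BAK1 (16.2 ± 1.26), BCL2L11 (8.87 ± 0.382), BCL2L2 (5.93 ± 0.392), BCL2L1 (5.27 ± 0.327), BID (3.53 ± 0.306), BCL2 (2.02 ± 0.0452), BMF (0.761 ± 0.136), BIK (0.639 ± 0.177) and BOK (0.354 ± 0.0430). There BCL2L2 overlapped BCL2L1 and BMF overlapped BIK. BCL2L2 stood above BCL2L11 in WT and below it in the libraries labelled ΔTUT4/7, and BMF stood above BCL2 in WT and below it in the others. The order rests on all annotated exon bases and not on the lengths of the transcripts that were expressed. The SDs cover the spread of libraries and not this uncertainty of length.

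**Figure D3:**
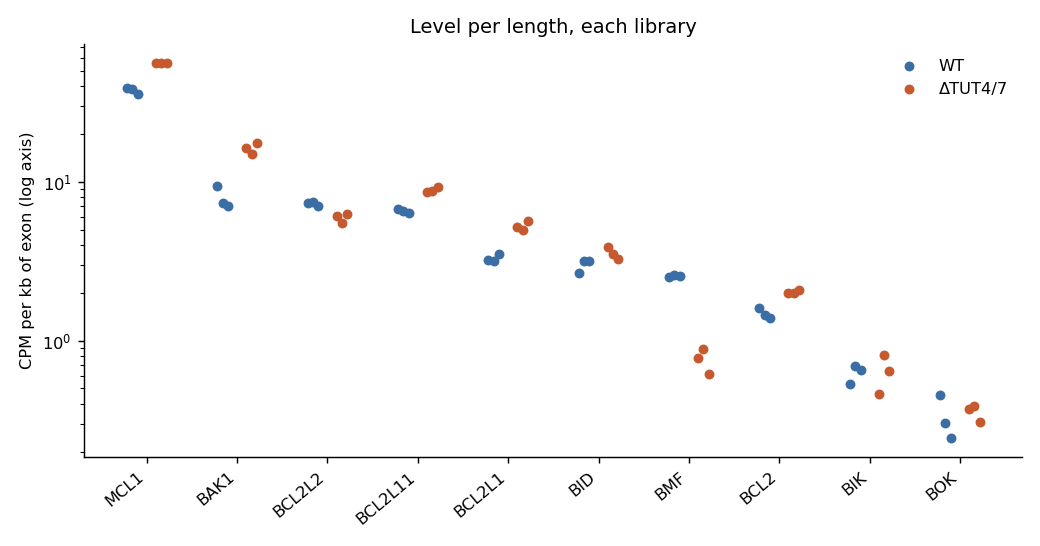
Level of each gene per kilobase of exon (y axis, CPM per kilobase, log axis) in each WT library and each library labelled ΔTUT4/7, ordered by the WT mean. MCL1 is at 35.4 or more in every library, while BOK is at 0.456 or less, and BMF drops from 2.54 to 0.761 on average.

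Summed by role, the pro-survival genes were at 49.6 ± 2.01 CPM per kilobase in WT and 69.0 ± 0.914 in the libraries labelled ΔTUT4/7, the effector genes at 8.24 ± 1.39 and 16.6 ± 1.22, and the BH3-only genes at 12.7 ± 0.261 and 13.8 ± 0.106. MCL1 made up 75.7% ± 0.683 of the pro-survival sum in WT and 80.9% ± 0.814 in the libraries labelled ΔTUT4/7, and the share of BCL2L2 went from 14.7% ± 0.253 to 8.59% ± 0.471. Within the BH3-only sum the share of BMF went from 20.01% ± 0.0619 to 5.51% ± 0.970 and that of BCL2L11 from 51.5% ± 2.31 to 64.3% ± 2.67. The ratio of the pro-survival sum to the BH3-only sum was 4.11, 3.88 and 3.71 in WT and 5.04, 4.91 and 5.07 in the libraries labelled ΔTUT4/7. These sums and shares rest on the same exon lengths, describe RNA of the 10 genes only, leave out other family members, and were not tested. Of those left out, the effector gene BAX fell from 41.1 ± 4.48 to 29.4 ± 0.841 CPM. The BH3-only gene PMAIP1 fell from 74.9 ± 2.19 to 37.9 ± 2.76 CPM. BAD, also BH3-only, rose from 10.1 ± 0.622 to 14.9 ± 0.813 CPM, and BBC3 and HRK were not called. The sums therefore do not give the level of the whole effector or BH3-only group.

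The genes around each of the 10 were used to see whether its change was shared by its chromosomal region. Expressed genes within 2.5 Mb, those with a mean count of at least 50, had a median log2 fold change of 0.01 around BAK1 (108 genes, 2 of them above BAK1) and of 0.03 around BMF (56 genes, 2 of them below BMF). The medians were 0.05 around MCL1 (77 genes), 0.08 around BCL2L1 (31 genes), 0.01 around BCL2L11 (36 genes) and -0.05 around BCL2L2 (84 genes). The medians around these 6 genes were thus near 0, whichever way the gene itself moved, but the single genes varied. The quartiles were -0.37 and 0.30 around BCL2L2, with 24 genes below it, and -0.38 and 0.43 around BCL2L11, with 9 above it. Above MCL1 stood 4 of its neighbours and above BCL2L1 2. BCL2 was different, in that the 9 expressed genes around it had a median of 0.29, which leaves 0.16 of its log2 fold change of 0.45. Still, 7 of these 9 genes stood below BCL2 and 2 above it. Around BOK the median was 0.35 (25 genes), around BID -0.09 (51 genes) and around BIK -0.15 (70 genes).

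**Figure D4:**
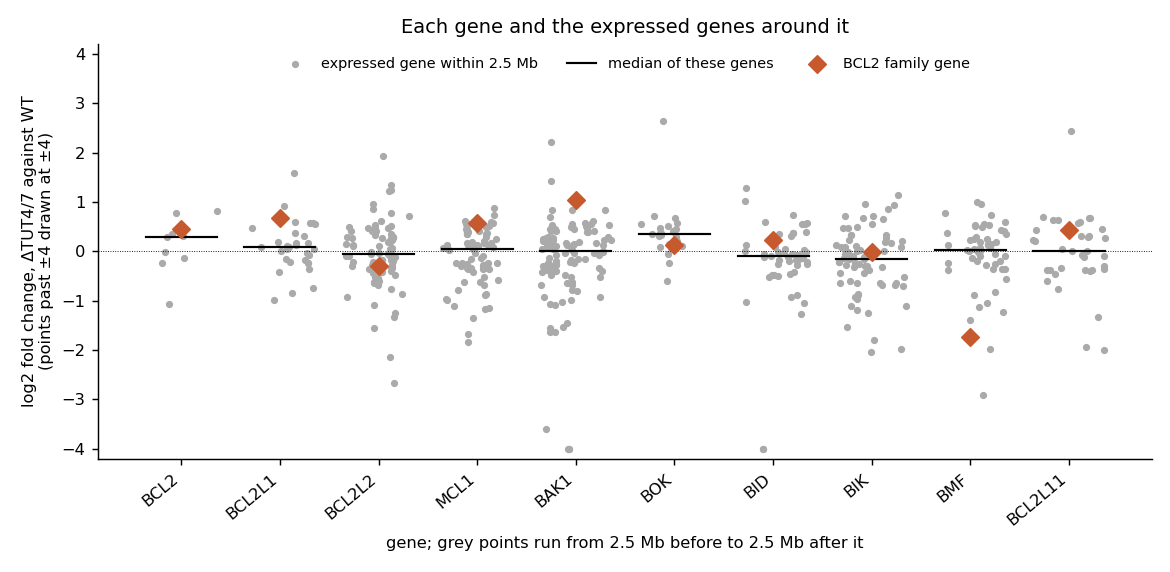
Log2 fold change in the libraries labelled ΔTUT4/7 against WT (y axis) of each of the 10 genes (diamonds) and of the expressed genes within 2.5 Mb (grey points, placed by distance), with their median as a bar. BAK1 and BMF stand at the edge of their surroundings. BCL2 at 0.45 is above the median of 0.29 of the 9 genes around it, and 2 of these stand above BCL2.

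Of 13 other BCL2 family genes, 11 were tested (BCL2A1 and BCL2L10 were not in the table), and 3 were called higher, 4 lower and 4 not, with a median log2 fold change of -0.19 beside -0.02 over all tested genes. BAX, the effector that works beside BAK1, fell from 41.1 ± 4.48 to 29.4 ± 0.841 CPM (log2 fold change -0.48 ± 0.08, adjusted p = 1.24e-05), so the RNAs of the main effectors BAK1 and BAX moved in opposite directions. PMAIP1, which encodes the MCL1-binding BH3-only protein NOXA, fell by 0.98 ± 0.06 on the log2 scale (adjusted p = 8.82e-12), from 74.9 ± 2.19 to 37.9 ± 2.76 CPM. The others that fell were BNIP3L (-0.55) and BCL2L13 (-0.48). Those that rose were BCL2L12 (0.64), the BH3-only gene BAD (0.56) and BNIP3 (0.42). BBC3, which encodes PUMA, had a log2 fold change of -0.31 ± 0.13 that did not pass (adjusted p = 0.0559), and HRK (0.14), BCL2L14 (0.56) and BCL2L15 (-0.19) were not called either.

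In the list of 7 apoptosome and caspase genes, 2 were called higher and 3 lower, with a median of -0.23. CASP2 (0.63) and CYCS (0.54), which encodes cytochrome c, rose. CASP10 fell from 28.0 ± 0.830 to 2.58 ± 0.336 CPM (log2 fold change -3.41 ± 0.11, adjusted p = 3.88e-16) and CASP8, the protease that cuts BID, from 25.9 ± 1.38 to 5.75 ± 0.590 CPM (log2 fold change -2.16 ± 0.10, adjusted p = 9.56e-14). APAF1, the scaffold of the apoptosome, fell by 0.23, and CASP9 (-0.24) and CASP6 (-0.12) were not called.

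Among 6 tested inhibitor of apoptosis genes and their antagonists (BIRC3 was below the count filter and BIRC7 not in the table), 4 were called higher and 1 lower, with a median of 0.25. DIABLO, which encodes the antagonist SMAC, rose from 41.3 ± 2.46 to 81.6 ± 1.86 CPM (log2 fold change 0.98 ± 0.06, adjusted p = 3.47e-12), and the inhibitors BIRC5 (0.53), XIAP (0.34) and BIRC6 (0.15) rose as well. BIRC2 fell (-0.16) and HTRA2 (-0.12) was not called, and BIRC2 and BIRC6 were called although their groups overlapped.

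Of 10 genes whose proteins bind or control BCL2 family proteins, 5 were called higher, 1 lower and 4 not, with a median of 0.23. Those for the dynein light chains that hold BIM and BMF both rose: DYNLL1 from 81.1 ± 6.66 to 146 ± 8.64 CPM (log2 fold change 0.85 ± 0.06) and DYNLL2 from 60.5 ± 5.75 to 101 ± 4.36 CPM (0.74 ± 0.06). VDAC2, which recruits BAK1 to mitochondria, rose by 0.72, MTCH2, a receptor for cleaved BID, by 0.43 and HUWE1, a ubiquitin ligase for MCL1, by 0.39. FBXW7, another ubiquitin ligase for MCL1, fell (-0.72 ± 0.05, adjusted p = 8.64e-11). MOAP1 (0.03), the deubiquitinase gene USP9X (0.07), BECN1 (0.05) and the BIM activator gene FOXO3 (-0.08) were not called.

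In the death receptor pathway, which reaches the family through BID, 4 of 7 genes were called lower, 1 higher and 2 not, with a median of -0.53. TNFRSF10A, a TRAIL receptor gene, had 153, 246 and 298 counts in WT and 0 in all 3 libraries labelled ΔTUT4/7, at least 216-fold lower against a floor of 3 counts over the group, which covers counting error only. The second TRAIL receptor gene TNFRSF10B fell from 247 ± 8.96 to 71.6 ± 1.77 CPM (log2 fold change -1.79 ± 0.05, adjusted p = 1.69e-17), FAS by 0.93 and CFLAR, an inhibitor of CASP8, by 0.53. FADD, the adaptor of these receptors, rose (0.61), and TNFRSF1A (0.02) and TRADD (-0.13) were not called. Over these 5 lists, 15 of 41 tested genes were called higher and 13 lower, beside the 28.6% and 29% of all tested genes. Those shares were not matched for count. In the fit of the 15575 genes with a mean count of at least 50, 5535 were called higher and 5571 lower. That fit called 14 genes of the lists higher and 17 lower.

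**Figure D5:**
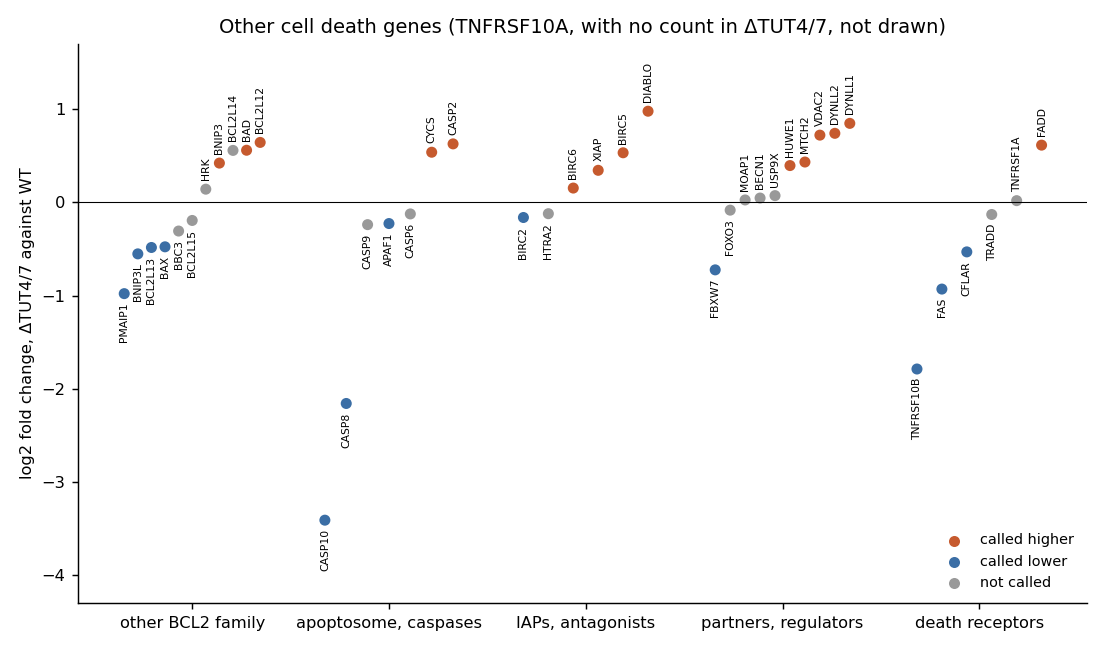
Log2 fold change in the libraries labelled ΔTUT4/7 against WT (y axis) of the tested genes of 5 lists (x axis), sorted within each list and coloured by call. CASP10 (-3.41), CASP8 (-2.16) and TNFRSF10B (-1.79) are the lowest points, and DIABLO (0.98) is the highest; TNFRSF10A, at 0 counts in 1 group, is left out.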

How the data were processed

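Per the labels and the study's methods, the authors aligned paired reads of 76 bases to hg38 with STAR 2.7.3a and quantified Ensembl release 102 genes in Partek Flow 10.0.22 with its expectation-maximisation model. The deposited table held expected counts, that is, estimated counts that need not be whole because the authors' model divides reads between overlapping or similar genes. The deposited table of the authors' own comparison (p-values, ratios and group means) was not used.

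Expected counts were rounded, genes with a largest count above 12 over the 6 libraries were kept, and the whole table was fitted with edgeR 4.0.16 under R 4.3.3 (TMM scaling, a robust glmQLFit and glmQLFTest on group alone), with p-values adjusted after Benjamini and Hochberg over 23952 genes; a call needs an adjusted p under 0.05. The steps were tested on simulated data. Gene positions are as deposited, with ends printed 1 base before the deposited stop column, which lies past the annotated end. Exon lengths, 3′ UTRs and the positions of microRNA sites are from GENCODE release 44 on the same build. Among the 10 genes, the printed end of BCL2L11 differs from that release. Its exon length and shared bases may therefore differ from those of the gene model that was counted. Per kilobase values use all annotated exon bases of a gene. Promoters and microRNAs are from RefSeq, GRCh38.p14, which gave a promoter for 7 of the 10 genes, not for BCL2L2, MCL1 and BIK.

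The members and lists were chosen with earlier results of these data known, and some items of the lists and sites searched are not reported here. Named besides the 10 genes are TUT4, TUT7, overlapping genes, and per list the 4 called genes with the smallest p and those not called or not in the table; the rest of counts of 5 or fewer (BAX, BAD, BNIP3, CYCS, APAF1, BIRC2, MTCH2, HUWE1 and FADD), and PABPN1 and BAK1P1, were added after their values were seen. Alternatives were other scalings, DESeq2 1.42.0, limma 3.58.1 (voom, and log2(CPM + 1)), other filters, counts not rounded, a block for the replicate number, leaving out each library in turn, a GC and length offset (mgcv 1.9.3), subtraction of the neighbouring genes and, chosen after seeing the data, sums with overlapping or copied genes.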

Additional observations from a re-analysis of the deposited data

How the results depend on the processing

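The 5 genes called higher and the 2 called lower were called in the same direction under each of the 18 refits of the table, and BID was called higher as well in 3 of them, so that 6 genes were higher without WT replicate 2, without ΔTUT4/7 replicate 3 and with the GC and length offset. Leaving out 1 library at a time gave 5 to 6 genes higher and 2 lower. At a change of 2-fold or more, 1 gene was higher (BAK1) and 1 lower (BMF), by construction of that stricter rule. Library size alone and upper-quartile scaling shifted the median over the tested genes, on the log2 scale, from -0.02 to -0.13 and -0.12, with the same 5 and 2 calls. The whole table gave 11106 calls with a mean count filter of 50, which does not test BOK and BIK, to 14248 with no filter, beside 13813, and the 5 lists gave 14 to 16 genes higher and 12 to 17 lower, beside 15 and 13. For BCL2L2 the sign changed only when PABPN1 was added to its sum (0.0329), which was then mostly PABPN1 (141 of 204 CPM in WT). The sign of BOK changed without WT replicate 3 (-0.0750, the lowest of its values without 1 library, the highest being 0.384) and with the GC and length offset (-0.0836). That of BIK changed with DESeq2 (0.00384), with log2(CPM + 1) (0.00798), with the replicate block (0.0142) and without 1 library (-0.222 to 0.210). BOK and BIK were called under none of these. Subtracting the neighbouring genes left 0.16 for BCL2 and 0.53 for MCL1, and changed the sign for BOK (-0.22) and BIK (0.13). The causes were not tested.

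Replicates that share a number were not paired, since their deviations from the group means had correlations of 0.066, 0.013 and -0.042 over 15575 genes and WT replicate 1 correlated best with ΔTUT4/7 replicate 3. With the replicate block, 5 of the 10 genes were higher and 2 lower, 13678 genes were called over the table, and no call among the 10 genes changed. Depth limits BOK and BIK, with 65 and 46 counts over the WT libraries.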

Other observations

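Of the 4 death receptor pathway genes that fell, 3 lie in 2 short regions, which were noticed after their values were seen, and FAS lies elsewhere, on chromosome 10. CFLAR, CASP10 and CASP8 follow each other on chromosome 2 between 201116154 and 201287711 and had log2 fold changes of -0.53, -3.41 and -2.16, while the 39 expressed genes within 2.5 Mb of CASP10 had a median log2 fold change of 0.07, and 0 of them stood below CASP10. TNFRSF10B and TNFRSF10A lie on chromosome 8 between 23020133 and 23225102, and the 31 expressed genes within 2.5 Mb of TNFRSF10A had a median of -0.31, with the middle of their values from -0.67 to -0.14. NEFL and NEFM, at 24950955 and 24913758 on the same chromosome, were also lower in the libraries labelled ΔTUT4/7. No explanation of either region was tested.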
